A study of Homo sapiens with 6 samples.

Results

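The genes described here are 9 human genes that B cells use to attach to other cells and to leave lymphoid tissue: SELPLG, ICAM1, ICAM3, CD58, ITGA4, ITGB1, ITGAL, ITGB2 and S1PR1. They were chosen by symbol, as 9 of the 18244 genes that the array read with at least 1 probe set naming a single gene. The array held 32 probe sets for them, of which 28 were above the filter on dim values, and each gene was read by its brightest probe set. All 9 genes passed that filter, which asked for a mean over the 6 arrays above 33.8 intensity (the 40th percentile among human probe sets) and left 12198 genes for testing.

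Leukocytes leave the blood and settle in tissue through a sequence of contacts. Selectins on the vessel wall catch glycoproteins such as SELPLG, integrins then bind immunoglobulin-family ligands such as the ICAMs and VCAM1, and S1P receptors guide cells back out along a gradient of sphingosine-1-phosphate (S1P). Integrins are heterodimers of an alpha and a beta chain: ITGA4 and ITGB1 form VLA-4, which binds VCAM1 and fibronectin, and ITGAL and ITGB2 form LFA-1, which binds ICAM1 and ICAM3. In B cells these molecules hold the cell to stromal and antigen-presenting partners and help set how long it stays in a follicle or in bone marrow.

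The cells were P493-6, an established human B-cell line, labelled a B-cell lymphoma, that carries a c-Myc transgene silenced by tetracycline. There were 6 one-colour Affymetrix arrays of total RNA, 2 for each group: low-Myc, with repression lifted for 0 hours, mid-Myc, with it lifted for 1 hour, and high-Myc, with it lifted for 24 hours. All groups share the line, the transgene and a serum-containing medium, so no group lacks the transgene, and the low-Myc cells are the repressed state of the same line. For mid-Myc, one protocol field gives 0 hours and another 1 hour; the second was used, since these cells are labelled as expressing a moderate level of c-Myc. The mid-Myc samples carry accession numbers far from the others, and a separate array batch cannot be told apart from an effect of 1 hour. By the series' design the pairs are biological duplicates; p-values measure the spread between them, and their number limits the precision. The RNA came from whole cultures, where fewer cells expressing a gene and less of its RNA per cell cannot be told apart.

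Synthetic ERCC RNAs were added in proportion to cell number, which gives each value 2 scales. On the per-cell scale, each array had a curve through its 100 ERCC probe sets subtracted, so that a level stands relative to RNA added per cell. The equal-median scale subtracted from each array the median of its human probe sets, so that a level stands relative to the cell's other transcripts. The median deposited ERCC intensity was 83.0 and 74.3 in low-Myc, 61.6 and 60.01 in mid-Myc and 37.9 and 37.2 in high-Myc. The median tested gene differed by 0.98 log2 between high-Myc and low-Myc per cell and by 0.05 log2 on the equal-median scale. The probe set for MYC read 10472 and 10279 intensity in low-Myc, 10031 and 9941 in mid-Myc and 11888 and 11979 in high-Myc, and was higher in high-Myc than low-Myc by 0.96 log2 per cell and 0.34 log2 on the equal-median scale (limma adjusted p = 4.08e-10 and 2.68e-07). In mid-Myc against low-Myc MYC was 0.13 log2 higher per cell (adjusted p = 0.00292), where the median gene was 0.30 log2 higher. On the equal-median scale MYC was 0.095 log2 higher there (adjusted p = 0.0339). That call was kept in 7 of 17 alternative analyses, and 2 others called MYC lower. Which of the transgene and the resident gene the MYC probe set reads is not stated in the labels. ACTB's 3′ over 5′ signal, a measure of RNA integrity and labelling, was 2.76 and 2.86 in low-Myc, 3.06 and 2.88 in mid-Myc and 3.67 and 3.44 in high-Myc; its part in the results was not tested.

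RefSeq's promoter table (GRCh38.p14) held 6 of the 9 genes, with 250 bases before and 50 after the start listed there. SELPLG, ITGAL and ITGB2 were not among them. For ITGA4 and S1PR1 that start lies inside the annotated gene, downstream of its first base. Promoters are given for 3 genes that were lower together in high-Myc cells on the equal-median scale and for ICAM1, which was not. Capitals mark matches on either strand to the E-box CACGTG bound by Myc, the GC box GGGCGG bound by SP factors, the CACCC box bound by KLF factors, and the forkhead site GTAAACA bound by FOXO factors.
ITGA4 (chr2:181457136-181457435, + strand): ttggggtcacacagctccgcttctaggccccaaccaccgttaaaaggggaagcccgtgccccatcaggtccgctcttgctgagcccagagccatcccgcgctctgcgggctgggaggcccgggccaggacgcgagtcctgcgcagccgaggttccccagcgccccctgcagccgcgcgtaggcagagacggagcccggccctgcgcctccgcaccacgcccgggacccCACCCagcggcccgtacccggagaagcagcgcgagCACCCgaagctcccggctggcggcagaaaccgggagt
ITGB1 (chr10:32958181-32958480, − strand): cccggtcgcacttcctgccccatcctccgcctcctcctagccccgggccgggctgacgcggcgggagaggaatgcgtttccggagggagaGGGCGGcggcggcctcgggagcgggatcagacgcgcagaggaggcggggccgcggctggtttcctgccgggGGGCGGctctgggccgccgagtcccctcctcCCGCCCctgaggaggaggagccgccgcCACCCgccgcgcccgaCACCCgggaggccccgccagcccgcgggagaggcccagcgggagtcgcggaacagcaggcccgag
S1PR1 (chr1:101236769-101237068, + strand): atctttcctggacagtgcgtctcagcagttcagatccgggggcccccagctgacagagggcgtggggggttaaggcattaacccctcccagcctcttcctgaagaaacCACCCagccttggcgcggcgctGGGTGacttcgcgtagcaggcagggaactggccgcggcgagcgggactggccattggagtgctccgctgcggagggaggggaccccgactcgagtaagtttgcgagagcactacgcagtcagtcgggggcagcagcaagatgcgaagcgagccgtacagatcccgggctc
ICAM1 (chr19:10270870-10271169, + strand): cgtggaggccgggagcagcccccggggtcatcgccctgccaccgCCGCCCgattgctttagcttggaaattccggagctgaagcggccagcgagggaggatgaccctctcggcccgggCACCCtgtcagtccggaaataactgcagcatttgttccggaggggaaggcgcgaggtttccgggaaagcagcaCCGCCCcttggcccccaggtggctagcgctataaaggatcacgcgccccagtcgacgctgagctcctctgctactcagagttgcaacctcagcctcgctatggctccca

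None of the 6 promoters, ICAM3 and CD58 included, held the E-box or the forkhead letters in this window. Over 35116 promoters of the same length, 7.26% held the E-box and 3.42% the forkhead site. The CACCC box occurred in all 6 promoters, with 2 matches each in ITGA4, ITGB1, S1PR1 and ICAM3 and 1 each in ICAM1 and CD58, against 59.9% of all promoters with any. The GC box occurred in ITGB1 and CD58 with 3 matches each and in ICAM1 with 2, against 45% of all promoters with any. No match to one motif overlapped a match to another, though a pair of GC boxes in CD58 overlapped each other. A match is a description of letters and shows no binding.

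After 24 hours of c-Myc, the integrin chains and the S1P receptor were lower relative to the cell's other transcripts, and the selectin ligand and the immunoglobulin-family ligands were not called lower, though other scalings did call CD58 and SELPLG lower. On the equal-median scale 5 of the 9 genes were lower in high-Myc than low-Myc (ITGA4, ITGB1, ITGAL, ITGB2 and S1PR1) and 1 was higher (ICAM1), where 26.0% of all tested genes were called lower and 37.7% higher. The median of the 9 genes was -0.62 log2, against 0.05 over all tested genes. Per cell 7 genes were higher (ITGB1, ITGAL and ITGB2 not so with 1 ERCC factor per array), S1PR1 alone among the 9 was lower and ITGA4 was not called, where 91.0% of all tested genes were called higher and 2.47% lower. These calls read each gene by its brightest probe set, and other ITGA4 probe sets were called lower per cell. The median of the 9 genes was there 0.41 log2, against 0.98 over all tested genes. The curve shifted the high-Myc against low-Myc difference of these 9 probe sets by 0.79 to 1.28 log2, set against the deposited values.

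**Figure D1:**
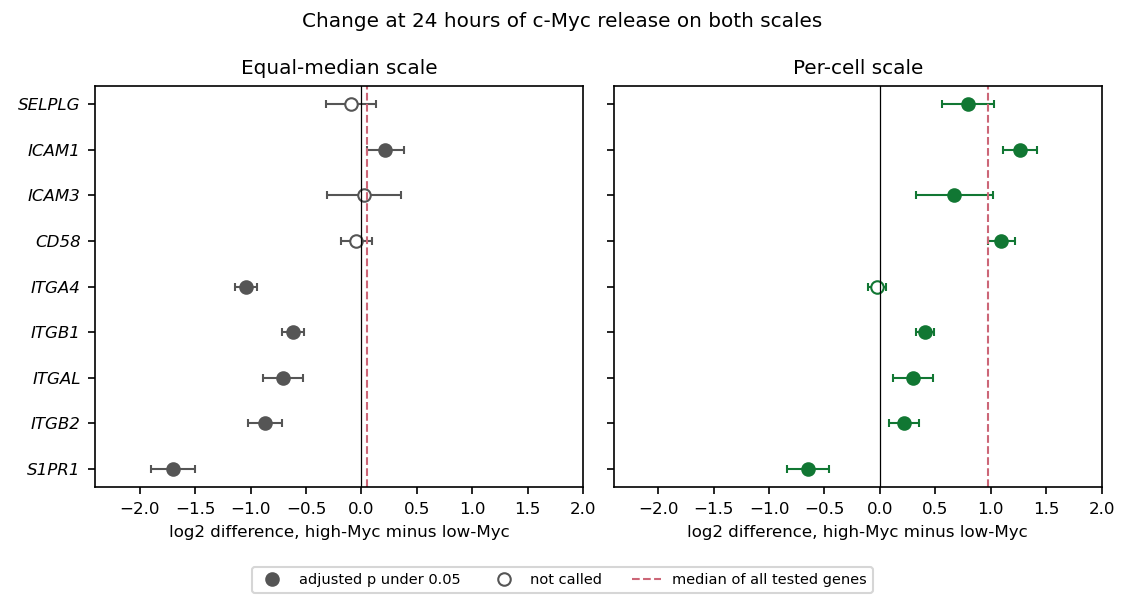
Log2 difference of each gene, high-Myc minus low-Myc, on the equal-median scale (left) and the per-cell scale (right), with 95% intervals from limma over 6 arrays; filled points have an adjusted p under 0.05 and the dashed line is the median of all 12198 tested genes. The 4 integrin chains and S1PR1 lie left of the dashed line in both panels, while ICAM1 and CD58 lie to its right per cell.

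SELPLG encodes PSGL-1, the mucin-like glycoprotein that P-selectin binds when a leukocyte rolls. Its probe set read 78.9 and 80.8 intensity in low-Myc, 76.5 and 67.3 in mid-Myc and 65.9 and 70.1 in high-Myc as deposited. The high-Myc arrays were below both low-Myc arrays and overlapped mid-Myc. The equal-median difference from low-Myc was -0.09 log2 (95% interval -0.32 to 0.13, limma adjusted p = 0.463). With centring on the tested genes it was -0.30 log2 and called lower (adjusted p = 0.0266). Per cell SELPLG was 0.80 log2 higher (SE 0.10, adjusted p = 4.21e-05), a rise below that of the median gene.

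ICAM1 is the inducible ligand of LFA-1 and takes part in the contact between B cells and T cells. Its probe set read 151 and 141 intensity in low-Myc, 151 and 144 in mid-Myc and 152 and 156 in high-Myc. Both high-Myc arrays were above all others, by a small margin. Per cell, ICAM1 was 1.26 log2 higher in high-Myc than low-Myc (SE 0.069, limma adjusted p = 4.13e-08), which is a 2.40-fold difference. With 1 ERCC factor per array ICAM1 was 0.90 log2 higher, where the median gene was 0.742 log2 higher. Its equal-median difference was 0.22 log2 (SE 0.079, adjusted p = 0.028), a call that was kept in 10 of 17 alternative analyses, with values of 0.012 to 0.27 log2 and adjusted p of 0.0218 to 0.881. Among single arrays, it was lost without low-Myc replicate 2 (0.16 log2) and without high-Myc replicate 2 (0.19 log2).

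ICAM3, an LFA-1 ligand carried by resting leukocytes, was read near the filter. It gave 41.9 and 43.9 intensity in low-Myc, 35.4 and 44.7 in mid-Myc and 40.7 and 38.6 in high-Myc. The mid-Myc arrays spanned those of both other groups, and the high-Myc arrays were just below low-Myc. The equal-median difference between high-Myc and low-Myc was 0.03 log2 (95% interval -0.31 to 0.36, limma adjusted p = 0.902). Per cell ICAM3 was 0.67 log2 higher (SE 0.15, adjusted p = 0.00208). Of the array's 23 background control probe sets, 6 were brighter on average than this one. The part of background in its reading was not tested.

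CD58 encodes LFA-3, the ligand through which B cells engage CD2 on T and NK cells. Its probe set read 536 and 493 intensity in low-Myc, 437 and 411 in mid-Myc and 456 and 449 in high-Myc. Both released groups were below low-Myc on the deposited scale, and they did not overlap it. The equal-median difference of high-Myc from low-Myc was -0.05 log2 (95% interval -0.19 to 0.10, limma adjusted p = 0.576). It was called lower under 4 other scalings that leave out the ERCC RNAs, at -0.17 to -0.25 log2 (adjusted p of 0.00229 to 0.019). Per cell CD58 was 1.09 log2 higher in high-Myc (SE 0.053, adjusted p = 1.69e-08), 2.14-fold. With 1 ERCC factor per array CD58 was 0.64 log2 higher, below the median gene of that setting at 0.742 log2.

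**Figure D2:**
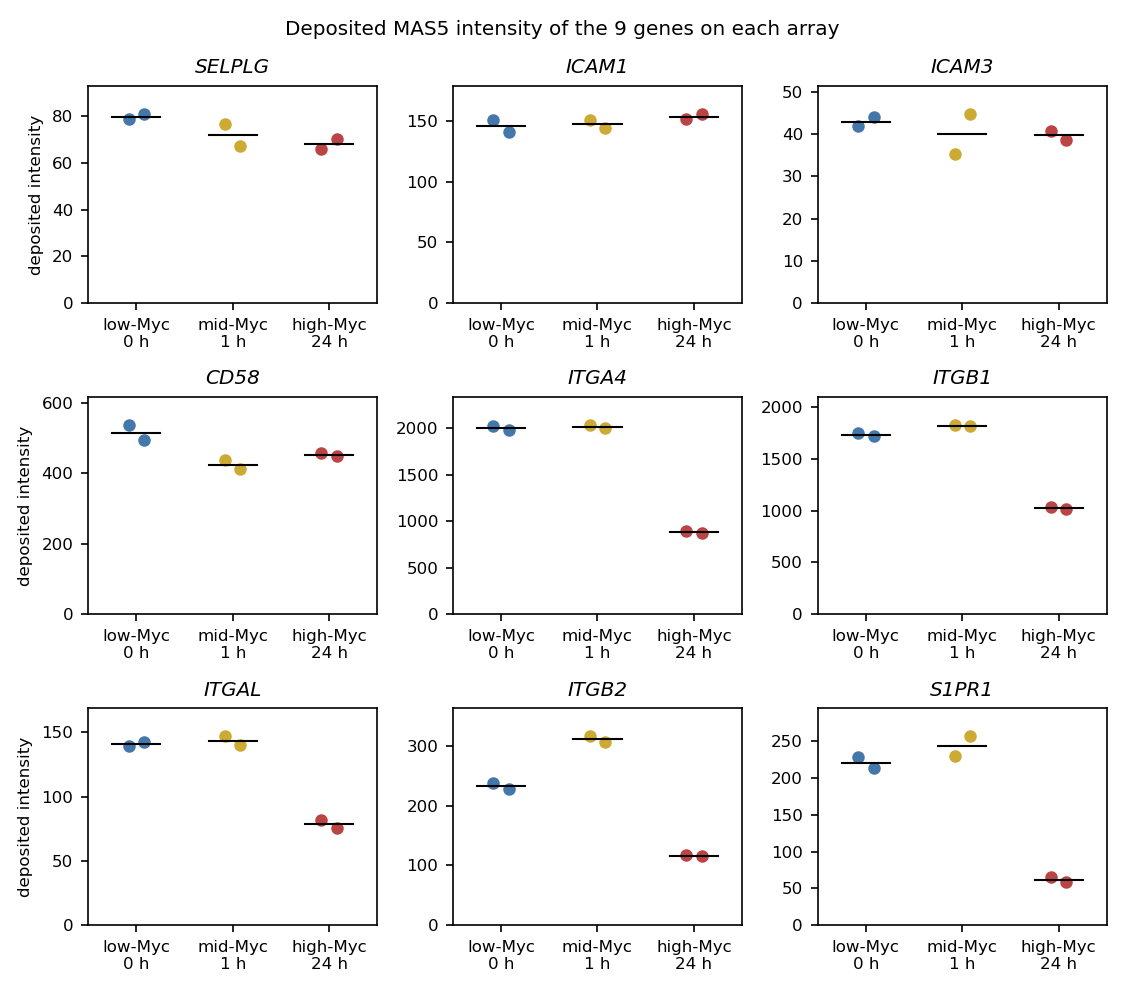
Deposited intensity of each gene's probe set on each of the 6 arrays, on linear axes that start at 0, for the low-Myc, mid-Myc and high-Myc groups from left to right; points are arrays and the line is their mean. In the panels of ITGA4, ITGB1, ITGAL, ITGB2 and S1PR1 both high-Myc arrays lie below all 4 other arrays, and for ITGB2 both mid-Myc arrays lie above all others.

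ITGA4, the alpha chain of VLA-4, read 2026 and 1981 intensity in low-Myc, 2033 and 2005 in mid-Myc and 897 and 870 in high-Myc. Low-Myc and mid-Myc overlapped, and both high-Myc arrays were far below them. ITGA4 was 1.04 log2 lower on the equal-median scale in high-Myc (difference -1.04, SE 0.047, limma adjusted p = 2.03e-10), 2.06-fold. Per cell its scaled intensity was 1412 and 1384 in high-Myc, against 1425 and 1417 in low-Myc, a difference of -0.02 log2 (95% interval -0.10 to 0.06, adjusted p = 0.537). The median gene was 0.98 log2 higher per cell, outside that interval. With 1 ERCC factor per array in place of the curve it was called lower per cell (-0.35 log2, adjusted p = 3.44e-05), as it was with the mean over its probe sets (-0.37 log2, adjusted p = 1.45e-05).

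ITGB1, the beta chain that ITGA4 shares with many other alpha chains, read 1754 and 1718 intensity in low-Myc, 1825 and 1816 in mid-Myc and 1039 and 1012 in high-Myc. The 3 groups did not overlap, with mid-Myc at the top and high-Myc at the bottom. The equal-median difference was -0.62 log2 between high-Myc and low-Myc (SE 0.047, limma adjusted p = 4.18e-08), 1.54-fold lower. Per cell ITGB1 was 0.41 log2 higher (SE 0.035, adjusted p = 1.7e-06), but only 0.069 log2 higher with 1 ERCC factor per array (adjusted p = 0.251).

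The chains of VLA-4 did not move by the same amount. Within each array, the log2 value of ITGA4's probe set minus that of ITGB1's was -0.21 and -0.22 in high-Myc, against 0.21 and 0.21 in low-Myc. This difference needs no scaling other than that of the array, and it changed by -0.42 log2 from low-Myc. Probe sets differ in brightness, so its size at 1 time says nothing of which chain is more abundant. The 2 groups did not overlap, and an exact permutation test of 2 arrays against 2 gave p = 0.333, the smallest it can give.

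ITGAL, the alpha chain of LFA-1 (CD11a), read 140 and 143 intensity in low-Myc, 147 and 140 in mid-Myc and 81.6 and 75.6 in high-Myc. Only the high-Myc arrays stood apart among the 3 groups. ITGAL was lower in high-Myc than low-Myc by 0.71 log2 on the equal-median scale (difference -0.71, SE 0.083, limma adjusted p = 3.76e-06) and 0.30 log2 higher per cell (SE 0.081, adjusted p = 0.00531). With 1 ERCC factor per array the per-cell difference was -0.018 log2 (adjusted p = 0.856).

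ITGB2 (CD18), the beta chain that LFA-1 shares with the myeloid integrins, was read by a single probe set. It gave 239 and 228 intensity in low-Myc, 317 and 308 in mid-Myc and 117 and 115 in high-Myc. The groups were fully separate, with the highest values at 1 hour and the lowest at 24 hours. The equal-median difference between high-Myc and low-Myc was -0.87 log2 (SE 0.071, limma adjusted p = 9.65e-08), 1.82-fold lower. Per cell ITGB2 was 0.22 log2 higher (SE 0.060, adjusted p = 0.00557), a direction that turned with 1 ERCC factor per array (-0.18 log2, adjusted p = 0.0353). Within each array ITGAL minus ITGB2 was -0.78 and -0.68 log2 in low-Myc, -1.11 and -1.14 in mid-Myc and -0.52 and -0.61 in high-Myc. The mid-Myc values lay below those of both other groups; which chain is more abundant cannot be read from them.

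S1PR1 encodes the S1P receptor that draws lymphocytes out of lymphoid tissue toward blood and lymph. It read 229 and 213 intensity in low-Myc, 230 and 257 in mid-Myc and 65.1 and 58.6 in high-Myc. Both high-Myc arrays were far below all others, and both mid-Myc arrays lay above low-Myc, one of them narrowly. The equal-median difference between high-Myc and low-Myc was -1.70 log2 (SE 0.090, limma adjusted p = 1.09e-09), 3.25-fold lower, and 0.705% of the tested genes had a lower value. Per cell the scaled intensity was 103 and 93.3 in high-Myc, against 156 and 152 in low-Myc, a difference of -0.65 log2 (SE 0.084, adjusted p = 3.58e-05), 1.57-fold lower. S1PR1 was called lower on both scales in each alternative analysis, 17 on the equal-median scale and 14 per cell.

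One hour after release the picture differed: limma called none of the 9 genes lower on either scale, nor was any lower at an unadjusted p under 0.05, and the integrin chains and S1PR1 were among those called higher. Per cell 6 of the 9 genes were higher in mid-Myc than in low-Myc (ICAM1, ITGA4, ITGB1, ITGAL, ITGB2 and S1PR1), where 62.7% of all tested genes were called higher and 0.672% lower. The equal-median scale called 4 higher (ITGA4, ITGB1, ITGB2 and S1PR1, of which ITGA4 and ITGB1 turned with quantile normalization), where 25.7% of all tested genes were called higher and 3.39% lower. That background depends on the scaling: of the genes called, 88.3% were higher here and 43.2% to 58.6% under the 4 other scalings that leave out the ERCC RNAs. The median of the 9 genes was 0.40 log2 per cell and 0.17 log2 on the equal-median scale, against 0.30 and 0.09 over all tested genes.

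ITGB2 had the largest of these differences among the 9 genes, at 0.81 log2 per cell (SE 0.060, limma adjusted p = 8.96e-06) and 0.57 log2 on the equal-median scale (SE 0.071, adjusted p = 8.43e-05). It was called higher in each of 17 equal-median and 14 per-cell alternatives, with the equal-median value between 0.42 and 0.61 log2. S1PR1 was higher by 0.52 log2 per cell (SE 0.084, adjusted p = 0.00047) and by 0.29 log2 on the equal-median scale (SE 0.090, adjusted p = 0.0286), and the second call was kept in 9 of 17 alternatives. It was lost without low-Myc replicate 1 (0.35 log2), low-Myc replicate 2 (0.23 log2) or mid-Myc replicate 2 (0.19 log2). ITGB1 was 0.40 log2 higher per cell (SE 0.035, adjusted p = 1.77e-05) and 0.22 log2 higher on the equal-median scale (SE 0.047, adjusted p = 0.00351), kept in 13 of 17.

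ITGA4 was 0.34 log2 higher in mid-Myc per cell (SE 0.036, limma adjusted p = 4.06e-05) and 0.16 log2 higher on the equal-median scale (SE 0.047, adjusted p = 0.0193). The deposited intensities of ITGA4 overlapped between mid-Myc and low-Myc, and the median human intensity used for centring was 45.6 and 44.5 on the mid-Myc arrays, against 49.8 and 50.2 on the low-Myc arrays. Its equal-median call was kept in 8 of 17 alternatives and lost without low-Myc replicate 2 (0.14 log2) or either mid-Myc array (0.17 and 0.15 log2), and quantile normalization and cyclic loess gave values below 0 (-0.067 and -0.031 log2). ITGAL and ICAM1, each 0.40 log2 higher per cell (adjusted p = 0.00182 and 0.000756), were 0.17 log2 higher on the equal-median scale without a call (95% intervals -0.0051 to 0.35 and -0.0049 to 0.34, adjusted p = 0.137 each). ICAM1 was called there with the mean over probe sets (0.24 log2, adjusted p = 0.0439) and was as low as 0.016 log2 over the 17 alternatives.

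SELPLG, ICAM3 and CD58 were not called in mid-Myc against low-Myc on either scale. Per cell their differences were 0.20, 0.20 and 0.11 log2, with 95% intervals of -0.03 to 0.44, -0.15 to 0.54 and -0.02 to 0.23. On the equal-median scale they were -0.0048, 0.04 and -0.13 log2, with 95% intervals of -0.23 to 0.22, -0.30 to 0.37 and -0.27 to 0.01. CD58 was called lower there under the 4 other scalings that leave out the ERCC RNAs, at -0.24 to -0.29 log2 (adjusted p of 0.00705 to 0.0129).

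Between 1 and 24 hours the integrin chains and S1PR1 parted from the ligands. On the equal-median scale all 5 were lower in high-Myc than in mid-Myc and limma called no member higher, none of them at an unadjusted p under 0.05 either, where 30.9% of all tested genes were called lower and 33.3% higher. The differences were -1.99 log2 for S1PR1, -1.44 for ITGB2, -1.20 for ITGA4, -0.88 for ITGAL and -0.84 for ITGB1 (limma adjusted p = 2.44e-10, 5.62e-10, 5.67e-11, 3.95e-07 and 1.94e-09), against a median of 0.02 over all tested genes. The ligands had equal-median differences of -0.09 (SELPLG), 0.05 (ICAM1), -0.01 (ICAM3) and 0.08 log2 (CD58), each with a 95% interval that held 0, within -0.35 to 0.32 log2.

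Per cell, the ligands SELPLG, ICAM1, ICAM3 and CD58 were higher in high-Myc than in mid-Myc by 0.59, 0.87, 0.47 and 0.99 log2 (limma adjusted p = 0.00042, 1.12e-06, 0.0153 and 5.44e-08). S1PR1, ITGB2 and ITGA4 were lower by the same measure, with differences of -1.17, -0.59 and -0.36 log2 (adjusted p = 4.64e-07, 7.67e-06 and 5.8e-06). ICAM3's call was lost without mid-Myc replicate 1 (0.30 log2) or either high-Myc array (0.45 and 0.47 log2). These counts, 4 higher and 3 lower of 9, stand beside 81.8% of all tested genes called higher and 6.48% lower. ITGB1 (0.01 log2, 95% interval -0.07 to 0.09) and ITGAL (-0.10 log2, 95% interval -0.28 to 0.08) were not called. With 1 ERCC factor per array both were called lower, ITGB1 at -0.28 log2 (adjusted p = 0.000373) and ITGAL at -0.32 log2 (adjusted p = 0.00573). The mid-Myc arrays enter both this comparison and that with low-Myc, so the values of one bear on the other.

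**Figure D3:**
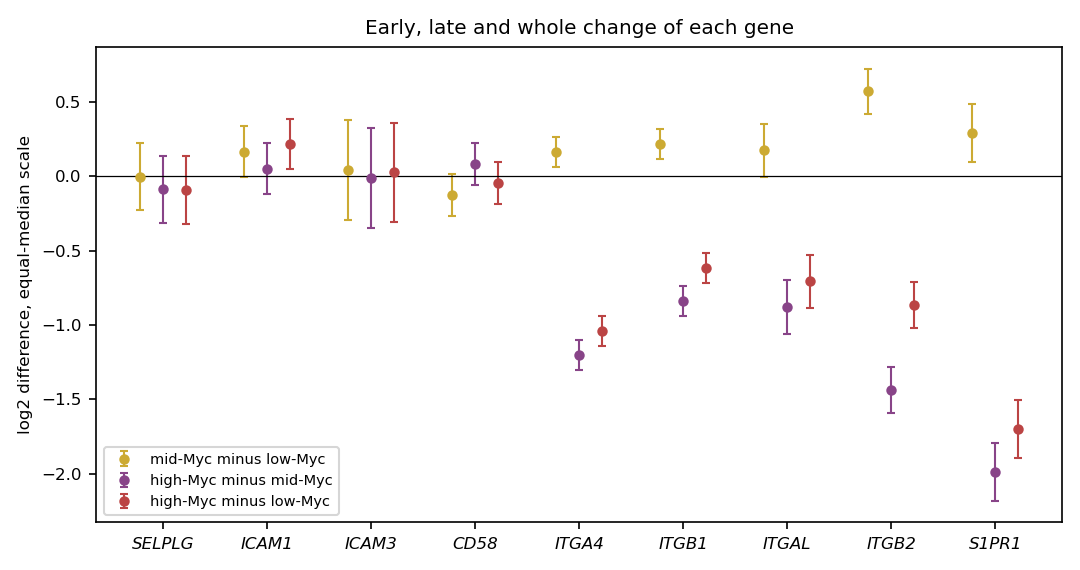
Log2 differences of the 9 genes in the 3 comparisons on the equal-median scale, with 95% intervals from limma over 6 arrays. The 4 integrin chains and S1PR1 are above 0 for mid-Myc minus low-Myc and below 0 for high-Myc minus mid-Myc, with ITGB2 at 0.57 and -1.44 log2; with quantile normalization the mid-Myc values of ITGA4 and ITGB1 turn below 0.

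Further probe sets of the same genes were used as a check. For ITGA4, all 4 others above the filter were lower in high-Myc than low-Myc on the equal-median scale, at -1.25 to -2.25 log2, more than the -1.04 log2 of the brightest. The steepest, read at 70.7 and 81.2 intensity in high-Myc against 405 and 390 in low-Myc, was lower per cell as well (-1.15 log2, limma adjusted p = 1.54e-07). Per cell -0.30 and -0.29 log2 were called lower too (adjusted p = 0.00413 and 0.00565), and -0.11 log2 was not (adjusted p = 0.0747). The per-cell result of no call for ITGA4 is thus that of its brightest probe set. For ITGB1 the 3 others gave -0.56 to -0.60 log2, near the -0.62 log2 of the one used. Both other S1PR1 probe sets were lower on the equal-median scale, at -1.48 and -1.06 log2, and per cell, at -0.58 and -0.31 log2.

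ITGAL's probe sets were less alike: beside the brightest, one gave -1.08 log2 (33.2 and 32.3 intensity in high-Myc, against 70.0 and 82.7 in low-Myc) and a dim one 0.05 log2 (31.5 and 32.1 in high-Myc, against 36.6 and 31.1 in low-Myc, limma adjusted p = 0.808). Per cell the same probe sets gave -0.27 and 0.62 log2 (adjusted p = 0.0635 and 0.00422), against 0.30 log2 for the brightest. For high-Myc against mid-Myc per cell, the first was called lower (-0.67 log2, adjusted p = 0.000523). The dim one was not called there (0.21 log2, adjusted p = 0.238). The probe sets used for ITGAL, ICAM3 and CD58 have the suffix _x_at, which marks probes that may also match other transcripts. Those used for ITGB1 and S1PR1 have the suffix _s_at. Matches to other transcripts were not tested for any probe set. Both other ICAM1 probe sets had equal-median values above 0, at 0.12 and 0.17 log2, neither of them called (adjusted p = 0.402 and 0.203). Among the 5 other CD58 probe sets, equal-median values ran from -0.43 to 0.21 log2, and the lowest was the sole one called (adjusted p = 0.000478). ITGB2 had no further probe set, and SELPLG and ICAM3 had 0 and 1 other above the filter.

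**Figure D4:**
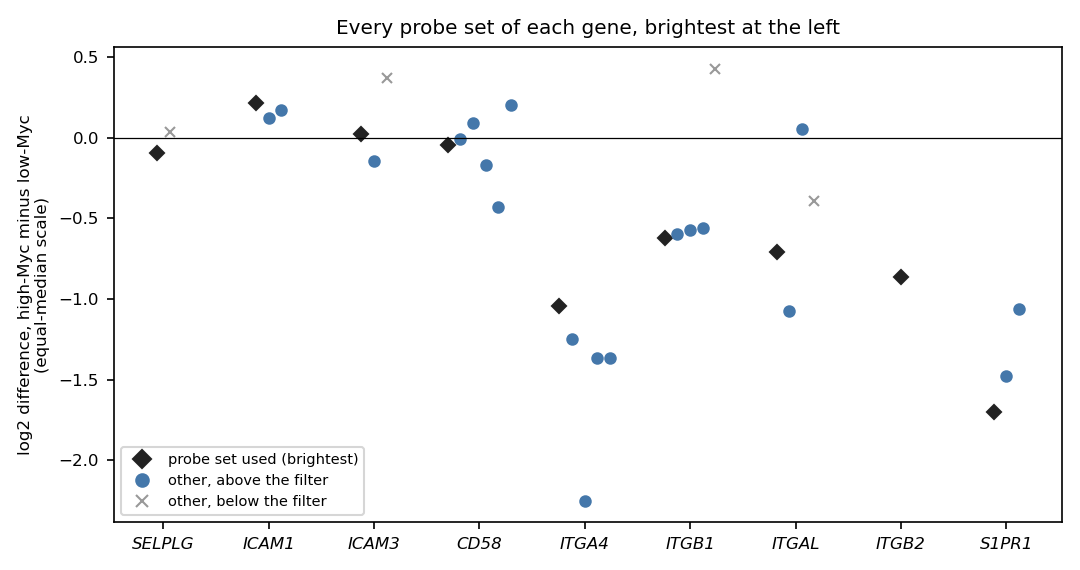
Log2 difference, high-Myc minus low-Myc, of each of the 32 probe sets of the 9 genes on the equal-median scale; diamonds are the probe sets used, circles the others above the filter and crosses those below it. All 5 probe sets of ITGA4 and all 3 of S1PR1 lie below -1, while the 6 of CD58 lie on both sides of 0.

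Related genes were taken from 5 lists of 95 genes, of which 71 were tested. Of these, 7 were higher and 39 lower in high-Myc than low-Myc on the equal-median scale, beside 37.7% and 26.0% of all tested genes, with a median of -0.28 log2 against 0.05 over all tested genes. Per cell 60 were higher and 5 lower, beside 91.0% and 2.47% of all tested genes, with a median of 0.66 log2 against 0.98. In mid-Myc against low-Myc the equal-median scale called 27 higher and 2 lower (KLF2 and GCNT1), beside 25.7% and 3.39% of all tested genes. In high-Myc against mid-Myc it called 3 higher (JAM3, ITGB1BP1 and GCNT1) and 45 lower, beside 33.3% and 30.9%. The list genes were not followed through the alternative settings, on which the share of higher calls in mid-Myc depended. The fold changes below are equal-median values for high-Myc against low-Myc unless a scale is given, and limma's adjusted p was under 0.05 for each gene said to be higher or lower.

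Of 11 other integrin chains tested, 4 were lower and 2 higher, beside 26.0% and 37.7% of all tested genes. Per cell 1 was lower and 10 higher, beside 2.47% and 91.0% of all tested genes. ITGAM, the alpha chain that pairs with ITGB2 in Mac-1, read 359 and 380 intensity in high-Myc, against 1963 and 2068 in low-Myc, a difference of -2.31 log2 (SE 0.059, limma adjusted p = 1.78e-12), and it was lower per cell too (-1.23 log2, adjusted p = 7.4e-09). ITGAV differed by -0.35 log2, ITGB4 by -0.28 log2 and ITGB7, the other partner of ITGA4, by -0.26 log2; ITGB7 was named here after its value was seen. The chains called higher, ITGA5 (0.51 log2) and ITGA11 (0.41 log2), both were dim, at 37.5 to 41.8 intensity in high-Myc and 28.2 to 35.6 in low-Myc.

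Among 16 other adhesion ligands and receptors, 7 were lower and 1 was higher, beside the same 26.0% and 37.7%. Per cell 15 were higher and 1 was not called, beside 91.0% of all tested genes called higher. PECAM1, which supports passage between endothelial cells, read 217 and 209 intensity in high-Myc, against 456 and 450 in low-Myc (-0.95 log2, limma adjusted p = 1.03e-08). The hyaluronan receptor CD44 differed by -0.65 log2 and the sialomucin SPN (CD43) by -0.48 log2. The junctional adhesion molecule JAM3 was higher, by 0.57 log2.

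Of 17 genes of integrin activation, 14 were lower and 1 was higher on the equal-median scale (26.0% and 37.7% of all tested genes), with a list median of -0.43 log2. Per cell 3 of them were lower and 11 higher, beside 2.47% and 91.0% of all tested genes. FYB1 (ADAP), an adaptor that brings the talin and RIAM machinery to integrins in T cells, read 119 and 119 intensity in high-Myc, against 420 and 398 in low-Myc (-1.64 log2, limma adjusted p = 8.99e-11). RASGRP2 (CalDAG-GEFI), the exchange factor that loads RAP1, differed by -1.53 log2. CYTIP, which restrains cytohesin-1 and LFA-1 adhesion, differed by -1.19 log2. It was 0.80 log2 higher at 1 hour, with 3124 and 2967 intensity in mid-Myc against 2005 and 1886 in low-Myc, the same order of groups as in ITGB2. These 3 genes were also lower per cell, by values of -0.52, -0.38 and -0.18 log2 (adjusted p = 7e-06, 0.0132 and 0.00186). ITGB1BP1 (ICAP1), which binds the ITGB1 tail and holds the integrin inactive, was higher by 0.65 log2.

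Of 18 genes of S1P signalling and its control, 8 were lower and 2 higher (26.0% and 37.7% of all tested genes). Per cell CD69 was lower and the other 17 were higher, beside 2.47% and 91.0% of all tested genes. CD69, a membrane protein that binds S1PR1 and takes it off the cell surface, read 135 and 108 intensity in high-Myc, against 3275 and 3466 in low-Myc. Its difference was -4.66 log2 (SE 0.078, limma adjusted p = 7.1e-14) and -3.58 log2 per cell (adjusted p = 1.23e-10), more than that of S1PR1 itself on both scales. KLF2 and FOXO1, transcription factors known in T cells to drive S1PR1 and other homing genes, differed by -0.77 and -0.72 log2; per cell both were higher (0.21 and 0.42 log2). In mid-Myc against low-Myc, FOXO1 was 0.39 log2 higher and KLF2 lower (-0.14 log2). The S1P exporter SPNS2 (0.36 log2) and the G-protein subunit GNAI3 (0.16 log2) were higher. As deposited, GNAI3 overlapped between the groups, at 1064 and 1089 intensity in high-Myc against 1078 and 1052 in low-Myc.

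Selectin ligand synthesis, the sugar and sulfate chemistry that makes SELPLG able to bind, had 6 of 9 tested genes lower and 1 higher, beside 26.0% and 37.7% of all tested genes. TPST1, which sulfates tyrosines at the SELPLG N-terminus, differed by -0.98 log2, the fucosyltransferase FUT7 by -0.87 log2 and the core 1 enzyme C1GALT1 by -0.79 log2. GCNT1, the core 2 branching enzyme, read 510 and 514 intensity in high-Myc, against 261 and 286 in low-Myc, a rise of 1.04 log2 (SE 0.069, limma adjusted p = 9.71e-09) and of 2.18 log2 per cell. At 1 hour it was the opposite way on the equal-median scale (205 and 205 intensity in mid-Myc, -0.27 log2 from low-Myc, adjusted p = 0.0103). Per cell the synthesis list had 7 genes higher in high-Myc and 2, TPST1 and FUT7, not called, beside 91.0% of all tested genes called higher.

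**Figure D5:**
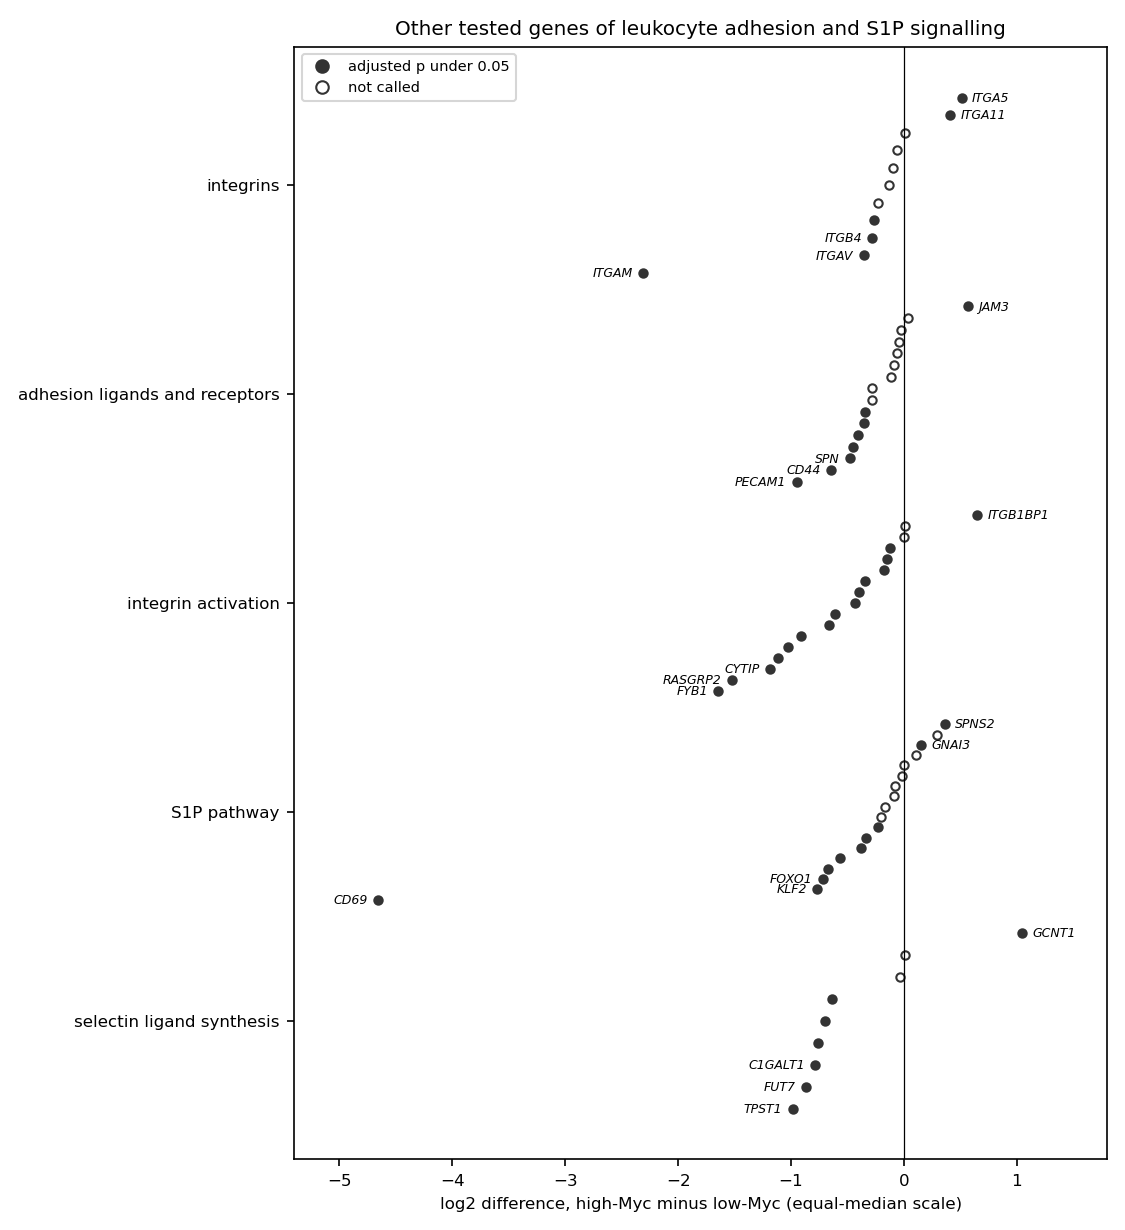
Log2 difference, high-Myc minus low-Myc, on the equal-median scale for the 71 tested genes of 5 lists, sorted within each list; filled points have a limma adjusted p under 0.05. The points of integrin activation lie mostly left of 0, CD69 is furthest left at -4.66 log2, and GCNT1 furthest right at 1.04 log2.

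Markers of the labelled cell type were present. Of 8 B cell markers, 7 had a probe set naming 1 gene, all were tested, and 5 were brighter than every background probe set. Their summed intensity was 24298 and 24098 in low-Myc, 25936 and 25040 in mid-Myc and 15764 and 15628 in high-Myc. On the equal-median scale 6 of the 7 were lower in high-Myc than low-Myc and PAX5 was higher, beside 26.0% and 37.7% of all tested genes. On that scale those 6 moved the same way as the integrin chains and S1PR1. Per cell CD22, MS4A1, CD74 and PAX5 were called higher (0.25, 0.33, 0.30 and 1.37 log2), beside 91.0% of all tested genes. CD79B was called lower per cell (-0.58 log2), beside 2.47%, and CD79A and EBF1 were not called. The part of these markers in the results was not tested.

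None of 8 T and NK cell markers was brighter than every background probe set, and their summed intensity was 300 to 308 in high-Myc, against 378 to 426 in low-Myc. Of 6 monocyte and granulocyte markers LYZ alone was bright, at 397 and 377 intensity in high-Myc against 1206 and 1191 in low-Myc (-1.49 log2, limma adjusted p = 2.76e-11), with CD14 and FCGR1A under the filter. Beside ITGB2 and ITGAM, which myeloid cells share, that LYZ moved in the same direction is given as a value, and its part was not tested. Of 4 endothelial markers, the 2 above the filter were not called (limma adjusted p = 0.902 for VWF and 0.301 for KDR). The summed intensity of all 4 was 128 to 143 in high-Myc against 136 in both low-Myc arrays.

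The gene with the most similar pattern was found for each of the 9, as the smallest root-mean-square distance between centred equal-median log2 values over the 6 arrays among 12197 others. It was PSKH1 for SELPLG (0.023 log2), LRRC41 for ICAM1 (0.013 log2), PKP1 for ICAM3 (0.033 log2) and H1-7 for CD58 (0.022 log2). For the integrin chains it was EEIG2 for ITGA4 (0.021 log2), ZC3H11A for ITGB1 (0.020 log2), SNAP23 for ITGAL (0.019 log2) and UBR7 for ITGB2 (0.030 log2). S1PR1's nearest gene, ARRDC3, was 0.046 log2 away and differed between high-Myc and low-Myc by -1.66 log2, against -1.70 log2 for S1PR1. None of the 9 genes was the nearest gene of another.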

How the data were processed

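The data are 1-colour Affymetrix arrays of P493-6 cells in 3 groups of 2. The authors deposited linear intensities per probe set, summarised with MAS5 per the submitters' processing notes; neither its version nor its scaling target is stated there. Of 49293 human probe sets, 45278 carried 1 symbol in GEO's platform annotation, updated through Entrez identifiers. No detection calls were at hand, so dim values include background.

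Values were taken to log2. The per-cell scale subtracted a curve fitted to the 100 ERCC probe sets against their mean over the arrays (robust loess, degree 1, span 0.7), held level beyond their range. The equal-median scale centred each array on its human median. Each gene's brightest probe set was tested in a single limma fit of all 6 arrays with the variance trend on (limma 3.58.1, R 4.3.3), two-sided, with Benjamini-Hochberg adjustment over 12198 genes and a threshold of 0.05. The steps were tested on simulated data. Replicate numbers were checked as pairs, and the correlations of same-numbered deviations (-0.003 to 0.002 over genes) gave no pairing. Within each group the arrays correlated at r = 0.996 over genes.

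The 9 genes, the 5 related lists and the marker lists were chosen with earlier results of these data known. Related genes were named as those called with non-overlapping equal-median values and the largest equal-median change, high-Myc against low-Myc, up to 3 lower and 3 higher per list. Alternatives covered the scaling, filter, probe sets, pseudocount, variance trend, replicate block, groups in the fit and each array left out.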

Additional observations from a re-analysis of the deposited data

How the results depend on the processing

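Of 831 values of the 9 genes under other settings, 764 kept their direction and side of the threshold, 29 lost a call, 13 gained one and 25 turned in sign. The high-Myc falls of ITGA4, ITGB1, ITGAL, ITGB2 and S1PR1 on the equal-median scale, against low-Myc and against mid-Myc, were called in each of 17 alternatives, as was ITGB2's rise in mid-Myc. With the replicate number as a block, the counts of the 9 genes called were 8, 6 and 7 per cell and 6, 4 and 5 on the equal-median scale, for high-Myc against low-Myc, mid-Myc against low-Myc and high-Myc against mid-Myc, the same as without it. The count for mid-Myc against low-Myc on the equal-median scale, 4 of 9, was 2 with quantile normalization, cyclic loess, centring on the tested genes and the values as deposited (ITGB2 higher, CD58 lower) and 2 with no variance trend. It was 2 to 4 with 1 array left out, at 2 without low-Myc replicate 2 and without mid-Myc replicate 2.

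With 1 ERCC factor per array, the per-cell values turned to -0.018 log2 for ITGAL and -0.18 for ITGB2 (high-Myc against low-Myc), -0.000797 for CD58 (mid-Myc against low-Myc) and -0.28 for ITGB1 (high-Myc against mid-Myc). On the equal-median scale, mid-Myc against low-Myc turned for ITGA4 with quantile normalization (-0.067) and cyclic loess (-0.031), and for ITGB1 with quantile normalization (-0.012). MYC turned there with quantile normalization (-0.15), cyclic loess (-0.16), centring on the tested genes (-0.020) and the values as deposited (-0.055), the first pair called. ICAM3 turned to -0.18, -0.11 and -0.061 in high-Myc against low-Myc and to -0.076, -0.11 and -0.046 in mid-Myc against low-Myc, with centring on the tested genes, the deposited values and the mean over probe sets. In high-Myc against mid-Myc, ICAM1 turned with centring on the tested genes (-0.038) and the mean over probe sets (-0.072), and CD58 with that centring (-0.0062). With 1 array left out, values ran from -0.0056 to 0.020 for ITGB1 in high-Myc against mid-Myc per cell. On the equal-median scale they ran from -0.0017 to 0.052 (ICAM3) and -0.11 to 0.023 (CD58) in high-Myc against low-Myc, from -0.081 to 0.071 (SELPLG) and -0.15 to 0.22 (ICAM3) in mid-Myc against low-Myc, and from -0.20 to 0.17 (ICAM3) in high-Myc against mid-Myc. The cause of these turns was not tested. A filter at the 60th percentile (70.9 intensity) left ICAM3 untested.

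Over all genes, 1 ERCC factor per array called 728, 140 and 1355 genes lower per cell, in the same order of comparisons, against 301, 82 and 791. The equal-median call of 3139 higher and 414 lower genes in mid-Myc against low-Myc stood against 955 and 1195 with quantile normalization, 1053 and 1034 with cyclic loess, 1527 and 1077 with centring on the tested genes and 1131 and 1489 as deposited, so the share of higher calls fell to 44.4%, 50.5%, 58.6% and 43.2%, against 88.3%. In high-Myc against low-Myc that share was 59.2%, against 47.2% (quantile), 51.7% (cyclic loess), 41.5% (tested-gene centring) and 46.9% (as deposited), and tested-gene centring called 4931 genes lower against 3172. With 1 array left out, mid-Myc against low-Myc gave 1900 to 3219 genes higher and 198 to 460 lower on the equal-median scale and 50 to 90 lower per cell, the lowest of each without low-Myc replicate 2. With no ERCC RNAs in a scaling, total RNA per cell is taken as equal. The 2 arrays a group and background in dim probe sets limit the precision.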

Other observations

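Some probe sets of 1 gene gave unlike changes, as values with no explanation. The CD58 probe set with the suffix _s_at read 205 and 233 intensity in mid-Myc, against 303 and 335 in low-Myc, an equal-median difference of -0.39 log2 (limma adjusted p = 0.00367), while the 5 other CD58 probe sets lay between -0.13 and 0.00 log2. Among the ITGA4 probe sets, equal-median differences between mid-Myc and low-Myc ran from -0.04 to 0.47 log2, and between high-Myc and mid-Myc from -1.20 to -2.44 log2. One ICAM1 probe set was called higher in mid-Myc than in low-Myc (0.45 log2, adjusted p = 0.0126) and lower in high-Myc than in mid-Myc (-0.33 log2, adjusted p = 0.0253), neither of which the probe set used for ICAM1 showed.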
